A study of Mus musculus with 17 samples.

Results

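Ascites drawn at the second tap was compared with tumours growing on the ovary in mice that carried ID8 cells, a mouse ovarian surface epithelial cancer line. The rule took 3 libraries of each group by their column names, 6 of the 17 libraries used, and every gene of the count table. Of its 43629 genes, 22671 passed a filter on low counts and were tested. The orthotopic tumours formed after ID8 cells were placed in the bursa around the right ovary. Ascites is the fluid, with its cells, that gathers in the abdominal cavity as such tumours spread. It was drawn with a syringe and needle, and the second of 3 successive draws is the group described here, unsorted, so that host cells of the fluid are part of each sample. Both groups come from mice given the same line, and no change to the line and no drug was named. The labels name the healthy ovary library, used here for reference, as C57BL6, and give no strain for the mice with tumours. Age and the link between animals and samples were not given in the sources used here, so p-values measure only the spread between these samples, which may be technical.

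Solid tumours are built from cancer cells and a supporting stroma: fibroblasts lay down collagen and other matrix proteins, and blood vessels are lined by endothelial cells and wrapped by pericytes. In the fluid of the abdomen, cells float or form clumps without such a scaffold. The cavity has its own leukocytes, mainly large peritoneal macrophages, which depend on the transcription factor Gata6, and smaller ones that arise from blood monocytes.

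Total counts of the 6 libraries ran from 24731047 to 38902048. Correlations of log CPM (counts scaled to library size) across genes were 0.953 to 0.960 within the second tap, 0.954 to 0.967 within the orthotopic tumours and 0.886 to 0.938 between the groups. Second tap 1 had 32775 genes with a count, against 23025 to 25663 in the other 5 libraries. Mitochondrial genes took 3.15% to 6.54% of the counts in the second tap and 6.37% to 6.99% in the tumours. Olfactory receptor genes, which are silent in most tissues, summed to 179.9, 63.1 and 123 CPM in second taps 1, 2 and 3 and to 37.7, 28.2 and 44.5 CPM in the tumours, and the part of this background in the results was not tested. The labels name the libraries with different prefixes, and second tap 2 and orthotopic tumour 1 share the prefix S while the other 4 have SM.

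Genes of the ovarian surface, the tissue from which the line derives, were present in both groups. They are not specific to the line. The mean level of the mesothelial and ovarian surface list, as log2(CPM + 1), was 5.58 in the line and 6.13 in the healthy ovary. These genes therefore do not tell cells of the line from host cells. Wt1, a transcription factor of the mesothelium and the ovarian surface, was at 407, 521 and 599.8 CPM in second taps 1, 2 and 3 and at 625, 345 and 561 CPM in orthotopic tumours 1, 2 and 3, with 577 CPM in the line itself. All values below follow this order of libraries. The keratin gene Krt8 was at 107, 236 and 170.2 CPM in the taps and 112, 79.4 and 148 CPM in the tumours, and its partner Krt18 at 78.0, 251 and 132 and 96.6, 46.0 and 106 CPM. Msln, the surface protein mesothelin, was at 114, 90.9 and 292 CPM in the taps and 35.4, 17.6 and 69.5 CPM in the tumours. None of these 4 passed the test. The epithelial adhesion genes Epcam, at 5.80, 10.98 and 4.77 and 3.84, 3.52 and 23.8 CPM, and Cdh1, at 5.74, 26.1 and 8.998 and 9.29, 5.52 and 14.4 CPM, overlapped between the groups. So did Alas2, of red cell precursors, at 39.7, 24.2 and 19.2 and 34.5, 37.0 and 19.1 CPM, and the T cell marker Cd3e, at 0.355, 1.001 and 0.367 and 1.27, 0.665 and 0.316 CPM.

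Genes of macrophages led those higher in the taps, and genes of vessels, pericytes and matrix led those lower. At an adjusted p under 0.05, 117 genes were higher in the second tap, which is 0.516% of the genes tested, and 131 were lower, which is 0.578%. Each of the 248 had 3 tap values on 1 side of 3 tumour values, as did 18.8% of all genes on the higher side and 12.5% on the lower side. The log2 fold changes of the called genes lay between -9.43 and 8.44, the smallest being 1.28 in size, against a median of 0.13 over all genes tested. The split of calls shifted with scaling, to 56 higher and 104 lower with DESeq2 size factors, and to 2 and 15 with library size alone.

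**Figure D1:**
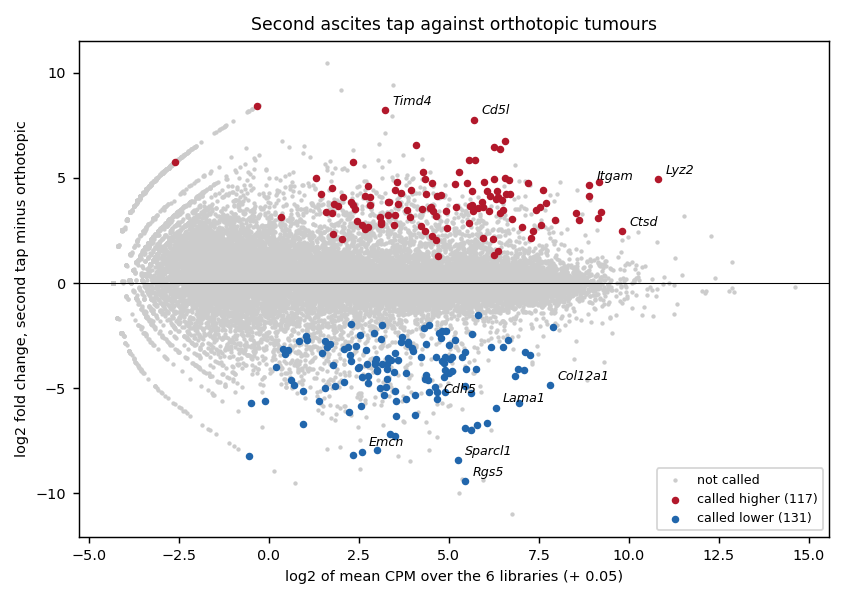
Log2 fold change of the second tap over orthotopic tumours (vertical axis) against the log2 mean CPM over the 6 libraries (horizontal axis) for all genes tested. Red points are the 117 genes called higher and blue points the 131 called lower, with Timd4 and Lyz2 among the first and Rgs5 and Sparcl1 among the second.

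The calls rested on all 6 libraries together. Without second tap 1, 2 or 3 the calls fell to 1, 6 and 5, and without orthotopic tumour 1, 2 or 3 to 10, 7 and 30. Every one of the 248 kept its direction and an unadjusted p under 0.05 in each of these 6 omissions, while 31 stayed below the adjusted threshold in at least 1. Rgs5 passed in all 6, Sparcl1 and Lrrc32, which anchors latent TGF-beta, in 5 and Pdgfrb in 4. Fitted alone, the 6 libraries gave 1024 genes higher and 763 lower among 18583 tested, including 246 of the 247 earlier calls that were tested there. Without the S-prefixed library of each group, 0 genes passed edgeR's quasi-likelihood test, 2451 had an unadjusted p under 0.05, and all 248 kept their direction. Bulk RNA cannot tell fewer cells of a type from less RNA per cell, and this holds for every result that follows. Counts of list members below come from the fit of all 17 libraries, which called 1.09% of all genes. Where counts by DESeq2's Wald test are given beside them, that test called 1088 genes higher and 933 lower of 22562, or 8.96%. The 6 libraries alone called 9.62% of the genes tested there. With any 1 of the 6 libraries left out, no list kept more than 2 called members, and the fibroblast list alone kept 2.

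Macrophage genes led the higher side. Of the macrophage list 8 of 13 tested members were called higher and 0 lower, and its median log2 fold change was 2.99. All 13 lay wholly above the tumours, as did 18.8% of all genes. The count of calls was 0 in each omission of 1 library and 12 in DESeq2's Wald test. The mean level of the list, as log2(CPM + 1), was 7.45 to 8.30 in the taps and 4.61 to 5.201 in the tumours, and the list summed to 5591 to 9313 CPM against 436 to 681 CPM. Lyz2, the lysozyme of macrophages, was at 4704, 2813 and 2878 CPM in the taps and 86.1, 80.2 and 171 CPM in the tumours (log2 fold change 4.94 ± 0.98 (SE), adjusted p = 0.0436). Every tap thus stood far above every tumour, although reads of Lyz2 and its close copy Lyz1 may be split. Itgam, the integrin chain CD11b, was at 805, 1331 and 607 CPM and 30.4, 14.6 and 62.7 CPM, with second tap 2 highest (4.67 ± 0.91, adjusted p = 0.0436). Csf1r, the receptor on which macrophages depend for survival, was at 858, 596 and 564 CPM and 69.0, 52.9 and 77.5 CPM (3.34 ± 0.71, adjusted p = 0.0487). Adgre1, which encodes the macrophage surface protein F4/80, was at 154, 269.6 and 103 CPM and 26.2, 20.04 and 19.9 CPM, a log2 fold change of 2.99 ± 0.74 that missed the threshold (adjusted p = 0.0753). The other called members included the complement genes C1qa and C1qb, the lysosomal marker Cd68 and the endotoxin co-receptor Cd14, at log2 fold changes of 2.62 to 3.48. The cultured line held 0 CPM of Lyz2 and Itgam.

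Genes of large peritoneal macrophages were 5 of 15 higher, with a median of 3.95, and by DESeq2 8 were. Timd4, a receptor for dying cells on resident macrophages, was at 24.5, 22.6 and 8.92 CPM in the taps and 0, 0.133 and 0.0526 CPM in the tumours (8.22 ± 1.48, adjusted p = 0.0388). It was at or near 0 in all 3 tumours. F5, which encodes coagulation factor V, was at 54.4, 182 and 43.7 CPM and 1.25, 1.26 and 2.29 CPM, with second tap 2 above the other 2 (5.86 ± 0.95, adjusted p = 0.0275). Prg4, the lubricating protein lubricin, showed the same order among the taps, at 103, 408 and 78.2 CPM against 2.73, 1.93 and 14.8 CPM (4.91 ± 1.05, adjusted p = 0.0487), and the line held 23.8 CPM. Selp, the adhesion molecule P-selectin, followed it at 10.2, 68.4 and 10.1 CPM against 1.64, 1.26 and 1.16 CPM (4.45 ± 0.95, adjusted p = 0.0491). Saa3, an acute phase protein with close copies in the genome, was at 109, 145 and 200.3 and 1.43, 0.133 and 3.45 CPM (6.49 ± 1.33, adjusted p = 0.0466). Gata6 itself did not pass: it was at 191, 272 and 245 CPM in the taps and 333, 278 and 240.5 CPM in the tumours (-0.27 ± 0.61, adjusted p = 0.860), and the cultured line, which has no macrophages, held 274 CPM.

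Among genes of monocytes and small peritoneal macrophages 1 of 12 was called, the chemokine receptor Ccr2, at 219, 139 and 101 CPM in the taps against 7.01, 5.65 and 9.24 CPM (4.39 ± 0.78, adjusted p = 0.0375). The median of that list was 2.05, with log2 fold changes from -2.02 to 4.39. Of the genes tied to alternative activation 1 of 14 was called, the folate receptor Folr2 (114, 98.7 and 71.7 against 4.31, 4.92 and 4.32 CPM, 4.39 ± 0.70, adjusted p = 0.0275). The median of the list was 3.99, with log2 fold changes from -2.02 to 5.27. Of its members 11 lay wholly higher in the taps and 0 wholly lower, where 18.8% and 12.5% of all genes did. DESeq2 called 11 of the 14 and the 6 libraries alone 9, while each omission of 1 library left 0. Mrc1, the mannose receptor, was at 493, 382 and 248 CPM against 25.2, 29.6 and 45.4 CPM, and the scavenger receptor Msr1 at 311, 424 and 147 CPM against 7.63, 2.53 and 24.2 CPM. Neither passed (adjusted p = 0.134 and 0.0648). Arg1, the arginine-degrading enzyme of suppressive myeloid cells, was at 730.2, 1084 and 328 CPM and 9.06, 3.46 and 88.6 CPM, with orthotopic tumour 3 well above the other 2 tumours (4.40 ± 1.22, adjusted p = 0.107).

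By the rule for named genes, the 15 largest increases were Timd4, Cd5l, Padi4, Hal, Saa3, Fcna, F5, Nxpe5, Slfn4, Tbxas1, Cbr2, Cd300lb, Lyz2, Prg4 and Clec4e. Cd5l, a secreted survival protein of tissue macrophages, was at 85.5, 113 and 112 CPM in the taps and 0.208, 0.133 and 1.05 CPM in the tumours (7.77 ± 1.63, adjusted p = 0.0471). Padi4, which converts arginine to citrulline on histones, was at 255, 138 and 164 CPM against 1.40, 0.366 and 3.32 CPM (6.77 ± 1.11, adjusted p = 0.0275). Fcna, a ficolin that binds microbial sugars, was at 250.4, 84.8 and 168 CPM against 1.74, 0.864 and 3.42 CPM (6.38 ± 1.17, adjusted p = 0.0405). In each of these the lowest tap was more than 20 times the highest tumour. Tbxas1, the thromboxane synthase, was at 263, 112 and 172 and 4.26, 3.62 and 9.47 CPM (4.98 ± 0.88). Hal, the enzyme that breaks down histidine, was at 51.4, 8.52 and 40.7 and 0.182, 0.199 and 0.658 CPM (6.57 ± 1.36), with second tap 2 lowest of the taps. Cbr2, a carbonyl reductase, was at 237, 88.9 and 116 and 6.59, 3.86 and 3.71 CPM (4.96 ± 1.06), while the healthy ovary library held 552 CPM. Slfn4, of a family of close copies, had a log2 fold change of 5.29 ± 1.09, Nxpe5 one of 5.29 ± 0.84, the myeloid receptor Cd300lb one of 4.96 ± 0.91 and the lectin receptor Clec4e one of 4.82 ± 0.95.

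**Figure D2:**
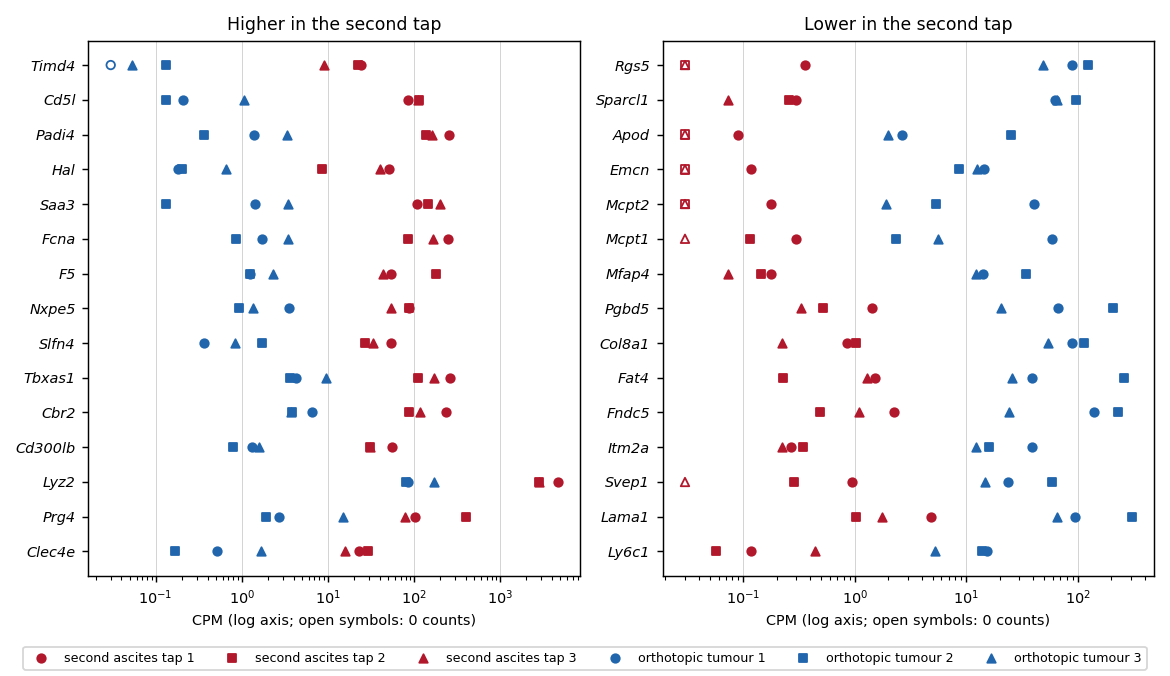
CPM in each of the 6 libraries (log axis) for the 15 genes with the largest increase (left) and the 15 with the largest decrease (right) by the naming rule. Red symbols are the 3 second taps and blue symbols the 3 orthotopic tumours, with open symbols for 0 counts, and in no gene do the groups overlap.

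Receptors and mediators of myeloid cells outside the lists were also called, and were singled out after their values were seen. The toll-like receptors Tlr2, Tlr8 and Tlr13, which sense microbial lipids and RNA, had log2 fold changes of 2.23 ± 0.44, 3.68 ± 0.78 and 3.60 ± 0.68. The lectin receptors Clec4d, Clec7a and Clec12a had 4.44 ± 0.93, 3.45 ± 0.67 and 3.53 ± 0.61. Of the leukotriene pathway, the activating protein Alox5ap (3.43 ± 0.71), the synthase Ltc4s (4.63 ± 0.90) and the receptor Cysltr1 (3.41 ± 0.70) were higher, as was Ptafr, the receptor for platelet activating factor (4.39 ± 0.65). Paired immune receptors were in the same set: Pirb was at 225, 177 and 139.7 CPM against 9.14, 6.05 and 13.7 CPM (4.23 ± 0.81, adjusted p = 0.0424). Its close copy Pira2 was at 5.60, 10.8 and 2.90 CPM against 0.363, 0.133 and 0.316 CPM (4.54 ± 0.93, adjusted p = 0.0466), and reads may be split between them. Cd300ld was at 25.4, 38.8 and 16.9 CPM against 3.71, 2.93 and 2.58 CPM (3.14 ± 0.63, adjusted p = 0.0458), and Pf4, the chemokine platelet factor 4, at 43.3, 42.6 and 32.1 CPM against 1.19, 2.06 and 2.92 CPM (4.25 ± 0.88, adjusted p = 0.0466).

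The 250 bases before the start of genes were searched for 2 short motifs on both strands: GAGGAAGT, a sequence of the type bound by PU.1, the master regulator of myeloid cells, and GTGGGAA, of the type bound by RBPJ, the partner of Notch. GAGGAAGT was found for 428 of the 14316 tested genes with a start in the RefSeq table (build GRCm38.p6), or 2.99%. It was found for 8 of 87 genes called higher (9.20%) and 3 of 80 called lower (3.75%). GTGGGAA was found for 6.51% of the tested genes, 5.75% of those called higher and 8.75% of those called lower. The 2 motifs overlapped in 5 of 32851 windows. To show what such a match looks like in genes called higher, 4 of the 8 are given with GAGGAAGT or its reverse complement, on the gene's strand from 5′ to 3′ up to the base before the start, with the match in capitals. Pirb and Pira2 are copies whose windows carry the match in the same surrounding letters, so they are not independent. The 8 genes hold a second such pair, A530064D06Rik and B430306N03Rik, with near-identical windows. Also among the 8 and not printed are Fancc and Gla, which the cultured line held at 32.4 and 26.9 CPM. In Pf4 the match lies at the end of the window, just before the start. A match is a description of letters and shows no binding.
Pirb (chr7:3720383-3720632, minus strand): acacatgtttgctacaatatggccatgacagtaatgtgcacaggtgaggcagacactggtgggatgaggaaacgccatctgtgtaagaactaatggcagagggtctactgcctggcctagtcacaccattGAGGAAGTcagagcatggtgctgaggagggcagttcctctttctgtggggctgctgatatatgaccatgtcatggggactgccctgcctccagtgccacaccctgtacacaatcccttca
Pira2 (chr7:3845052-3845301, minus strand): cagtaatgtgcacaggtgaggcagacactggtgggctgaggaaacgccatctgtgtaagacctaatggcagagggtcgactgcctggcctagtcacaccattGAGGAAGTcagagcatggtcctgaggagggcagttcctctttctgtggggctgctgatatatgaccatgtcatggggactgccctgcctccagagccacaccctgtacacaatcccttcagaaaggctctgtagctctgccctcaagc
Cd300ld (chr11:114989887-114990136, minus strand): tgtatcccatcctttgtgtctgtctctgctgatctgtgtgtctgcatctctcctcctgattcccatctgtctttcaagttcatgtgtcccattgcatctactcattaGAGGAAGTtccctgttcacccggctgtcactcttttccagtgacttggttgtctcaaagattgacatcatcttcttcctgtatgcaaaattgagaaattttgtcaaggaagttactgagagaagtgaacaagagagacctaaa
Pf4 (chr5:90772185-90772434, plus strand): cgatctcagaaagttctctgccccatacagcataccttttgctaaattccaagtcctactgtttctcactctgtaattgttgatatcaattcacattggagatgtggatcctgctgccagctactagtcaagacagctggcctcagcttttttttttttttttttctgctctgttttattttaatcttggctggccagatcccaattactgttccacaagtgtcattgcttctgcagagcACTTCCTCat

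Complement and coagulation genes were 6 of 23 higher and 0 lower (median 1.25), against 10 and 1 by DESeq2. Besides F5, C1qa and C1qb these were Cfp, properdin, which stabilises the complement convertase (319, 342 and 188 against 12.2, 7.81 and 11.8 CPM, 4.74 ± 0.90, adjusted p = 0.0424), and the receptors for the complement fragments C5a and C3a, C5ar1 (4.01 ± 0.67) and C3ar1 (3.63 ± 0.65). Lysosome and lipid handling genes were 4 of 17 higher (median 1.81). Ctsd, the protease cathepsin D, was at 1643, 1884 and 1059 CPM against 296, 249 and 284 CPM (2.47 ± 0.50, adjusted p = 0.0458), and the line held 189.6 CPM. Gpnmb, a glycoprotein of lipid-laden macrophages, was at 148, 88.6 and 73.9 CPM against 7.16, 10.4 and 8.18 CPM (3.59 ± 0.65, adjusted p = 0.0395). The lysosomal lipase Lipa (2.45 ± 0.50) and the fatty acid carrier Fabp5 (2.59 ± 0.46) were the other 2.

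Some ligands and receptors of leukocyte traffic were called higher, as were 0.516% of all genes tested. Of the chemokines 2 of 24 were higher (median 1.43), 10 lay wholly above the tumours and 3 wholly below. Of all genes 18.8% and 12.5% did so. DESeq2 called 8 higher and 1 lower. Cx3cl1, a membrane-bound chemokine, was among those below, at 51.9, 140.3 and 31.7 CPM against 211, 169 and 203 CPM (adjusted p = 0.400). The called chemokines were Pf4 and Ccl6, the latter at 1422, 1263 and 655 CPM against 17.03, 12.96 and 88.5 CPM (4.82 ± 1.02, adjusted p = 0.0487). Of the chemokine receptors 3 of 11 were higher (median 1.06), and 5 lay wholly above the tumours and 0 wholly below. Among the 3 were Ccr2 and Ccr1, the latter at 117, 104 and 59.7 CPM against 5.19, 3.12 and 12.8 CPM (3.73 ± 0.79, adjusted p = 0.0487). Among cytokines and their receptors 1 of 19 passed, the inflammatory cytokine Il1a (17.7, 5.23 and 6.06 against 1.04, 0.266 and 1.16 CPM, 3.55 ± 0.70, adjusted p = 0.0436). Of the integrins 1 of 21 passed, Itgam, with 6 wholly above the tumours, 5 wholly below and a median of 0.05, while its partner chain Itgb2 was at 423, 547 and 309 CPM against 21.96, 11.8 and 35.9 CPM (adjusted p = 0.0543).

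Other leukocytes gave few calls. The neutrophil list had 1 of 13 higher (median 2.76), while 8 lay wholly above the tumours and DESeq2 called 5 higher. The 1 was Csf3r, the receptor for the growth factor of granulocytes, at 189, 46.8 and 127 CPM against 4.65, 2.83 and 5.42 CPM (4.81 ± 0.95, adjusted p = 0.0437). Cxcr2, a chemokine receptor of neutrophils, was at 23.9, 5.63 and 18.4 CPM against 0.415, 0.133 and 0.263 CPM (adjusted p = 0.0525), and in both genes second tap 2 was the lowest tap. No B cell gene passed among 12 tested (median 2.25), though 8 lay wholly above the tumours and DESeq2 called 5 higher. None of 17 T cell genes (median 0.26), 12 NK and cytotoxic genes (median 0.89), 13 dendritic cell genes (median 2.39) or 8 plasma cell genes (median -0.06) passed. Of the dendritic cell genes 7 lay wholly above the tumours and 2 wholly below, and DESeq2 called 4 higher. The T cell list member Tcf7, also a transcription factor of Wnt signalling, was at 30.2, 28.2 and 23.7 CPM in the taps and 129, 101 and 119 CPM in the tumours (adjusted p = 0.0683). The platelet list had 1 of 7 higher, Pf4 (median 1.86), and no erythroid gene of 8 passed (median -0.40). MHC class I (median 1.05), MHC class II (median 1.05) and checkpoint genes (median 0.69) had 0 calls among 9, 7 and 15. Of these, 7, 3 and 3 lay wholly above the tumours, as did 18.8% of all genes, and 0, 0 and 2 wholly below. DESeq2 called 2, 0 and 2 of them higher. H2-Ab1, a chain of MHC class II, was at 345, 370.1 and 188 CPM against 187, 85.8 and 83.7 CPM (adjusted p = 0.348), and Vsir, the checkpoint protein VISTA, at 322, 249.7 and 202 CPM against 23.2, 17.9 and 26.1 CPM (adjusted p = 0.0670). Of the interferon response 1 of 17 passed, Oas2, which detects viral RNA (105, 31.4 and 70.5 against 4.08, 1.70 and 2.21 CPM, 4.69 ± 1.001, adjusted p = 0.0491; list median 0.70).

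A pair of mast cell proteases was called lower. Mcpt2 and Mcpt1, proteases of mucosal mast cells and close copies of each other, were at 0.178, 0 and 0 and 0.296, 0.114 and 0 CPM in the taps and 40.3, 5.35 and 1.89 and 59.0, 2.33 and 5.63 CPM in the tumours (-7.92 ± 1.63 and -7.27 ± 1.54, adjusted p = 0.0466 and 0.0487). Orthotopic tumour 1 held most of both. Of the list of mast cells, basophils and eosinophils 1 of 11 was called lower, the transcription factor Gata2 (0.977, 0.458 and 0.808 against 8.57, 4.65 and 3.68 CPM, -2.91 ± 0.59, adjusted p = 0.0448), and the list median was -2.09. That list does not hold Mcpt1 and Mcpt2. Its summed level overlapped between the groups, at 129 to 406 CPM and 180.4 to 281 CPM. Of the 11 tested, 5 lay wholly below the tumours and 2 wholly above, where 12.5% and 18.8% of all genes did. Siglecf, a marker of eosinophils, was among the 2 above, at 8.29, 1.57 and 2.204 CPM against 0.571, 0.399 and 0.737 CPM (adjusted p = 0.141).

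The endothelial list had the most calls on the lower side. Of its members 8 of 17 were lower and 0 higher, with a median of -3.12. Of the 17, 15 lay wholly below the tumours, as did 12.5% of all genes. The count of calls was 0 to 1 with 1 library left out and 14 by DESeq2. The mean level of the list was 1.96 to 2.203 in the taps, 4.02 to 4.53 in the tumours and 1.61 to 1.76 against 4.05 to 4.51 for the pericyte list. Cdh5, the cadherin that joins endothelial cells, was at 1.095, 1.72 and 0.441 CPM in the taps and 45.9, 73.8 and 28.7 CPM in the tumours (-5.50 ± 0.80, adjusted p = 0.0202). Kdr, the main receptor for vascular endothelial growth factor, was at 30.3, 9.49 and 38.3 CPM against 318, 254 and 175 CPM, so that a measurable level stayed in each tap (-3.26 ± 0.65, adjusted p = 0.0448). Emcn, endomucin, was at 0.118, 0 and 0 CPM against 14.4, 8.58 and 12.4 CPM (-8.02 ± 1.28, adjusted p = 0.0275). Pecam1 (-2.28 ± 0.47), Plvap (-3.08 ± 0.57), Egfl7 (-3.02 ± 0.58), Mmrn2 (-2.37 ± 0.50) and the transcription factor Sox18 (-3.31 ± 0.70) were the others. No vascular growth factor of 14 passed (median -1.19). Vegfa was at 78.1, 849 and 44.6 CPM in the taps and 880.2, 213 and 1097 CPM in the tumours, so second tap 2 resembled orthotopic tumours 1 and 3 and the other taps did not.

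Of the lymphatic endothelial list 1 of 7 was lower, Mmrn1 (0.681, 0.458 and 0.294 against 13.7, 7.51 and 17.8 CPM, -4.75 ± 0.60, adjusted p = 0.0127). Lyve1, which marks lymphatic vessels and also some macrophages, stood on the opposite side, at 383, 119 and 208 CPM in the taps against 8.51, 6.22 and 9.55 CPM in the tumours, and missed the threshold (adjusted p = 0.0753).

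Pericyte genes were 3 of 8 lower (median -2.30), and 1 in each omission of a library, Rgs5. Rgs5, a regulator of G protein signalling that marks pericytes, was at 0.355, 0 and 0 CPM in the taps and 89.8, 123 and 49.1 CPM in the tumours (-9.43 ± 1.07, adjusted p = 0.00969). It had the largest decrease of any named gene, with counts in second tap 1 alone. Notch3 is given below with its pathway, and Cspg4, the proteoglycan NG2, was at 6.16, 11.9 and 8.15 CPM against 37.2, 36.4 and 30.7 CPM (-1.99 ± 0.42, adjusted p = 0.0470). Of smooth muscle genes 1 of 10 was lower (median -1.55), Myh11, the smooth muscle myosin (2.55, 0.114 and 0.661 against 37.9, 12.3 and 12.4 CPM, -4.23 ± 0.91, adjusted p = 0.0495).

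Fibroblast genes were 3 of 13 lower (median -2.45), 0 to 2 with 1 library left out and 8 by DESeq2. Pdgfrb, the receptor through which platelet-derived growth factor acts on stromal cells, was at 3.67, 5.92 and 1.03 CPM in the taps against 54.7, 81.9 and 56.1 CPM (-4.18 ± 0.54, adjusted p = 0.0145), and the cultured line held 22.7 CPM. Thy1, a surface protein of fibroblasts and T cells, was at 1.78, 2.60 and 0.771 CPM against 20.5, 32.5 and 13.1 CPM (-3.67 ± 0.61, adjusted p = 0.0275). Mfap2, a microfibril protein, had a log2 fold change of -5.60 ± 1.1004. Pdgfra, the related receptor that defines many fibroblasts, was at 50.9, 32.0 and 90.2 CPM against 189, 416 and 164 CPM, without overlap but short of the threshold (adjusted p = 0.134).

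In 5 of the 6 matrix lists genes were called lower, and in none higher, although abundant members stood on the other side. Fn1, fibronectin, was at 7084, 12231 and 5293 CPM in the taps and 2279.8, 759 and 2215 CPM in the tumours, without overlap and without passing (adjusted p = 0.275). The list that holds it, of matricellular and microfibril proteins, summed to 8344 to 16984 CPM in the taps and 6879.6 to 9441 CPM in the tumours. Of matricellular and microfibril proteins 6 of 21 were lower (median -1.76), 0 to 1 with 1 library left out and 10 by DESeq2. Sparcl1, a secreted protein that modulates adhesion, was at 0.296, 0.257 and 0.0735 CPM in the taps and 63.0, 97.4 and 65.4 CPM in the tumours (-8.43 ± 0.86, adjusted p = 0.00893). Postn, periostin, which crosslinks collagen in tumour stroma, was at 1.095, 2.40 and 0.514 CPM against 43.9, 69.6 and 35.1 CPM (-5.198 ± 0.86, adjusted p = 0.0275). Fbn1, fibrillin, the backbone of microfibrils, was at 10.2, 13.8 and 6.35 CPM against 197, 305 and 152 CPM (-4.43 ± 0.79, adjusted p = 0.0375). Mfap4 (-7.20 ± 1.31), Fbln1 (-5.18 ± 0.97) and Thbs2 (-4.38 ± 0.89) were the other 3.

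Of the collagens of fibrils 1 of 13 was called, Col12a1, which decorates collagen fibrils (12.8, 22.6 and 9.59 against 446, 653 and 211 CPM, -4.86 ± 0.93, adjusted p = 0.0424), though 9 lay wholly below the tumours the median was -2.52 and DESeq2 called 8. Col3a1 was at 23.9, 67.9 and 14.9 CPM against 701, 1497 and 437 CPM (adjusted p = 0.0525). Col1a1 was at 55.7, 160.2 and 46.5 CPM against 1300.0, 1562 and 712 CPM (adjusted p = 0.110), and the cultured line held 885 CPM. Both collagens were thus low in every tap without passing. Basement membrane genes were 1 of 13 lower, Nid1, which links laminin to collagen (-3.79 ± 0.55), and the list median of -0.26 compared with 0.13 over all genes. Proteoglycans were 1 of 8 lower, Ogn (-2.89 ± 0.59), with a median of -1.13. Proteases and their inhibitors were 1 of 18 lower, Mmp2, a gelatinase of stromal cells (6.04, 6.35 and 1.40 against 170.3, 451 and 101 CPM, -5.71 ± 1.04, adjusted p = 0.0405). Of these 18, 4 lay wholly above the tumours and 6 wholly below (median -0.25), where 18.8% and 12.5% of all genes did. None of 13 collagen processing genes passed (median -0.74).

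**Figure D3:**
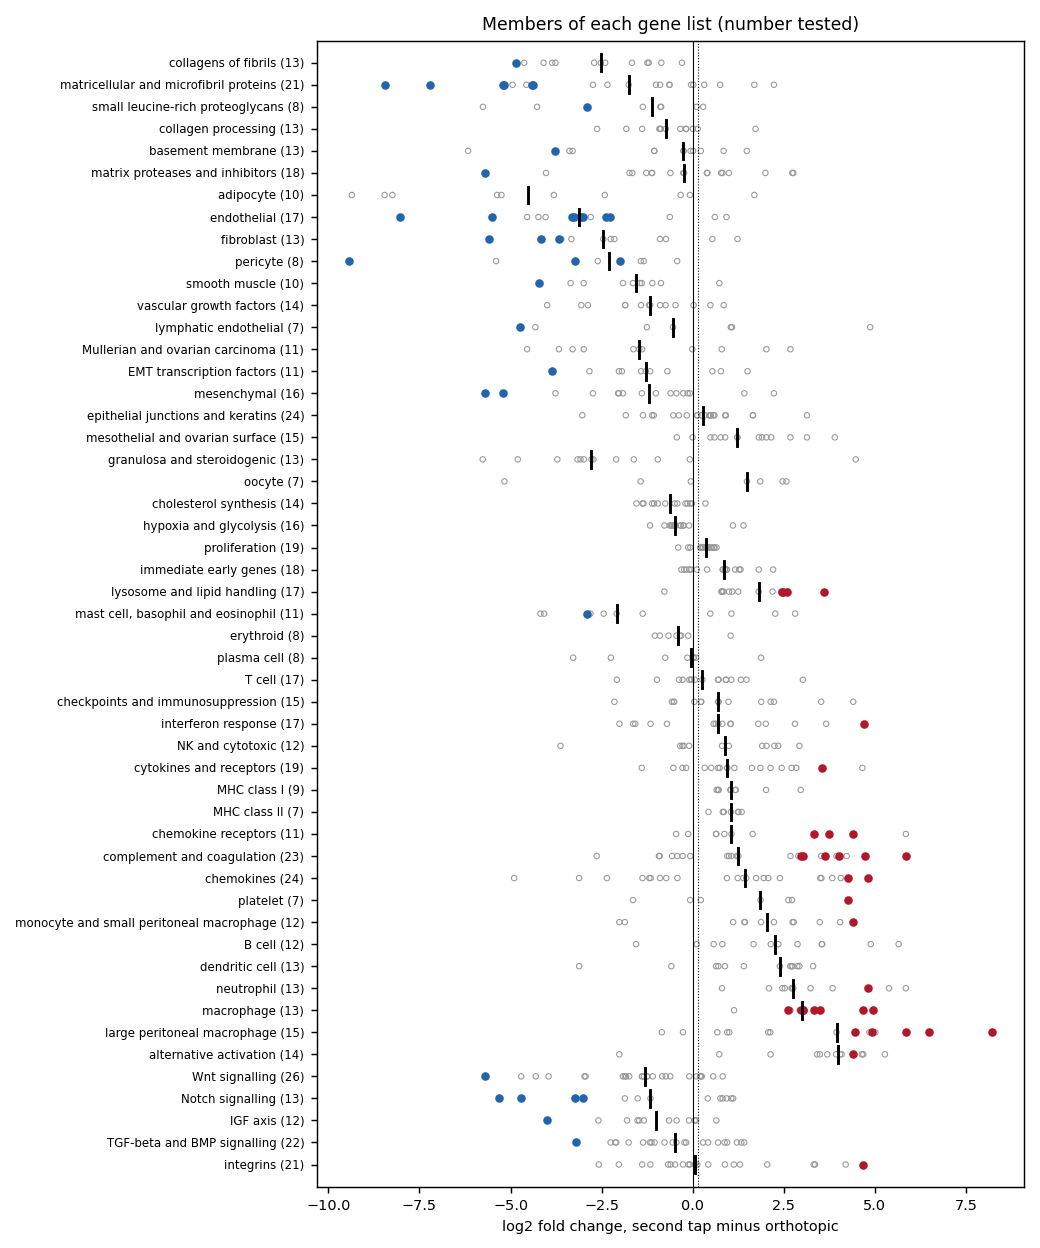
Log2 fold changes of the second tap over orthotopic tumours for the tested members of the 51 gene lists, with the number tested in brackets. Red and blue points passed higher and lower, open grey points did not pass, black bars are list medians, and the dotted line is the median of 0.13 over all genes.

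Of the 51 lists, 13 had members called higher alone, 17 had members called lower alone, 21 had none, and 0 had both. The lists were chosen with results of these data known, so these counts are no independent evidence of a direction. Together they held 660 tested genes, of which 29 were called higher and 34 lower.

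The 15 largest decreases by the rule were Rgs5, Sparcl1, Apod, Emcn, Mcpt2, Mcpt1, Mfap4, Pgbd5, Col8a1, Fat4, Fndc5, Itm2a, Svep1, Lama1 and Ly6c1. Apod, a lipid carrier, had 3 counts in the taps against 945 in the tumours, a ratio of 284 with a 95% Poisson interval of 96.7 to 1378 that covers counting error only. It was at 2.65, 25.5 and 2.00 CPM in the tumours, so orthotopic tumour 2 held most of it (-8.16 ± 1.71, adjusted p = 0.0471). Col8a1, a short-chain collagen of vessel walls, was at 0.859, 1.03 and 0.220 CPM against 89.3, 115 and 54.2 CPM (-6.92 ± 1.07, adjusted p = 0.0275). Fat4, a giant cadherin, was at 1.51, 0.229 and 1.29 CPM against 39.0, 260.0 and 25.8 CPM (-6.75 ± 1.27, adjusted p = 0.0407), and Fndc5, the precursor of irisin, at 2.25, 0.486 and 1.102 CPM against 142, 228 and 24.2 CPM (-6.68 ± 1.07, adjusted p = 0.0275). In Fat4, orthotopic tumour 2 stood well above the other tumours. Pgbd5 (-7.00 ± 1.11), Svep1 (-6.27 ± 1.26) and Itm2a (-6.32 ± 0.77) were lower as well. Ly6c1, a surface protein of endothelial cells with the close copy Ly6c2, was at 0.118, 0.0572 and 0.441 CPM against 15.4, 13.96 and 5.29 CPM (-5.83 ± 0.79, adjusted p = 0.0159). The cultured line held 22.7 CPM of Ly6c1, above every tumour.

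Lists of fat and ovary had no call in the fit of all 17 libraries. The adipocyte list had 0 of 10 and a median of -4.53. Of its members 6 lay wholly below the tumours, as did 12.5% of all genes. DESeq2 called 6 lower and the 6 libraries alone 5. Adipoq, the hormone adiponectin of fat cells, was at 0.0888, 0 and 0.147 CPM in the taps and 23.3, 45.3 and 3.18 CPM in the tumours (adjusted p = 0.0789), and Cfd, adipsin, at 0.414, 0.114 and 0 CPM against 105, 232 and 30.2 CPM (adjusted p = 0.0670). The tumours differed much among themselves, with tumour 3 lowest in both genes. Granulosa and steroidogenic genes also had 0 calls of 13 (median -2.78), and 4 lower by DESeq2. Inha, the inhibin subunit made by granulosa cells, was at 44.4, 33.1 and 39.9 CPM against 308, 405 and 220.4 CPM (adjusted p = 0.234), and the healthy ovary library held 1301 CPM. Fshr, the defining receptor of granulosa cells, was at 0.118, 0 and 0 CPM and 0.0519, 0.0332 and 0.789 CPM, and Zp3, of oocytes, at 0.651, 0 and 0 CPM and 0.104, 0 and 0 CPM, so both were near 0 in both groups. None of 7 oocyte genes passed (median 1.49). Of the 131 lower genes 112 (85.5%) were at 10 CPM or more in the healthy ovary, which is 1 library. This compared with 52 of the 117 higher genes (44.4%) and 45.6% of all genes tested. The split point was chosen after the data were seen. Mean levels of the endothelial and pericyte lists in that library were 4.89 and 3.95, against 4.02 to 4.53 and 4.05 to 4.51 in the tumours. The part that ovary or fat tissue in the tumour samples had in the lower genes was not tested.

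Proliferation, hypoxia, cholesterol and immediate early genes had no call. Of 19 proliferation genes 0 passed and 0 had groups without overlap (median 0.36). Mki67, which marks dividing cells, was at 391, 322 and 558 CPM in the taps and 397, 278 and 323 CPM in the tumours (adjusted p = 0.829). Hypoxia and glycolysis genes had 0 calls of 16 (median -0.47), and the list level overlapped between the groups, 6.42 to 8.05 and 6.53 to 7.93. Cholesterol synthesis genes had 0 calls of 14 (median -0.62). Of the 14, 8 lay wholly below the tumours, as did 12.5% of all genes, and DESeq2 called 6 lower. Among those 8 was Sqle, squalene epoxidase, at 25.9, 26.7 and 30.4 CPM against 64.4, 57.3 and 58.5 CPM (adjusted p = 0.0643). Immediate early genes, induced within minutes of a stimulus, had 0 calls of 18 (median 0.85). Of the 18, 4 lay wholly above the tumours and 0 wholly below, where 18.8% and 12.5% of all genes did. DESeq2 called 2 higher.

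Neither epithelial junction and keratin genes (24 tested, median 0.29) nor Mullerian and ovarian carcinoma genes (11 tested, median -1.47) had a call. Of the 11 Mullerian and ovarian carcinoma genes 4 lay wholly below the tumours and 1 wholly above, and DESeq2 called 3 lower. The mesothelial and ovarian surface list also had 0 calls, of 15, with a median of 1.23. Of the 15, 4 lay wholly above the tumours and 0 wholly below. DESeq2 called 1 higher, and the 6 libraries with the replicate block 4. Of all genes 18.8% lay wholly above and 12.5% wholly below. The mesothelial and ovarian surface list holds the genes that follow. Its member Upk1b, a uroplakin that the line also expresses, was at 330.5, 137 and 881 CPM in the taps and 50.6, 8.64 and 31.1 CPM in the tumours (adjusted p = 0.203). The keratin Krt7 was at 132, 16.5 and 312 CPM against 23.0, 3.59 and 25.8 CPM, so that second tap 2 fell among the tumours (adjusted p = 0.248).

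Genes of the mesenchymal state were 2 of 16 lower (median -1.20), namely Postn and Mmp2, which the matrix lists hold too. The list, which also holds Fn1, summed to 8503 to 18322 CPM in the taps and 8210 to 11908 CPM in the tumours. Of the transcription factors that drive the change from epithelial to mesenchymal state 1 of 11 was lower (median -1.29). This was Snai1, at 1.01, 1.14 and 0.808 CPM in the taps, 17.8, 15.1 and 10.5 CPM in the tumours and 20.7 CPM in the cultured line (-3.87 ± 0.53, adjusted p = 0.0159). Of the 11, 8 lay wholly below the tumours and 1 wholly above, where 12.5% and 18.8% of all genes did. DESeq2 called 4 lower. The summed level of these factors overlapped between the groups, at 637 to 1021 CPM and 556 to 905 CPM.

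Notch genes, through which a cell signals to its neighbour by contact, were 4 of 13 lower and 0 higher (median -1.16), 0 to 1 with 1 library left out and 6 by DESeq2. The 4 comprised a ligand, a receptor and a pair of targets. Dll4, the ligand of sprouting endothelium, was at 0.770, 0.0572 and 0.0735 CPM in the taps and 8.57, 9.71 and 5.95 CPM in the tumours (-4.71 ± 0.94, adjusted p = 0.0448). Notch3, the receptor of pericytes and smooth muscle, was at 2.78, 4.15 and 2.17 CPM against 25.2, 37.3 and 23.8 CPM (-3.24 ± 0.64, adjusted p = 0.0436). The target Hey1 was at 1.39, 0.858 and 1.25 CPM against 11.4, 9.11 and 7.55 CPM (-3.00 ± 0.42, adjusted p = 0.0172), and Heyl at 1.303, 1.03 and 0.0735 CPM against 17.2, 53.1 and 27.1 CPM (-5.32 ± 1.12, adjusted p = 0.0471). In all 4 genes every tap was below every tumour. The receptors Notch2, at 690.1, 625 and 552 CPM against 288, 358 and 249.8 CPM (adjusted p = 0.325), and Notch1, at 94.5, 80.2 and 51.5 CPM against 32.0, 46.0 and 40.7 CPM (adjusted p = 0.550), lay wholly above the tumours without passing. With them the list summed to 754 to 904 CPM in the taps and 492 to 628 CPM in the tumours. The endothelial and pericyte levels given above moved with them, and the part of those cells in the Notch result was not tested.

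Single genes passed in other signalling lists. In the Wnt list 1 of 26 was lower (median -1.298, 8 by DESeq2), Rspo3, a secreted amplifier of Wnt signals (0.0592, 0 and 0 against 1.71, 1.596 and 0.579 CPM, -5.71 ± 1.04, adjusted p = 0.0436). Axin2, a target of that pathway, was at 34.1, 43.9 and 40.8 CPM against 219, 131 and 99.4 CPM, short of the threshold (adjusted p = 0.140). In the TGF-beta and BMP list 1 of 22 was lower (median -0.50), Fst, follistatin, which binds activin (-3.20 ± 0.52, adjusted p = 0.0275). In the IGF list 1 of 12 was lower (median -0.997), the growth factor Igf2 (0.740, 1.06 and 0.147 against 3.17, 21.0 and 7.34 CPM, -3.996 ± 0.86, adjusted p = 0.0495).

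**Figure D4:**
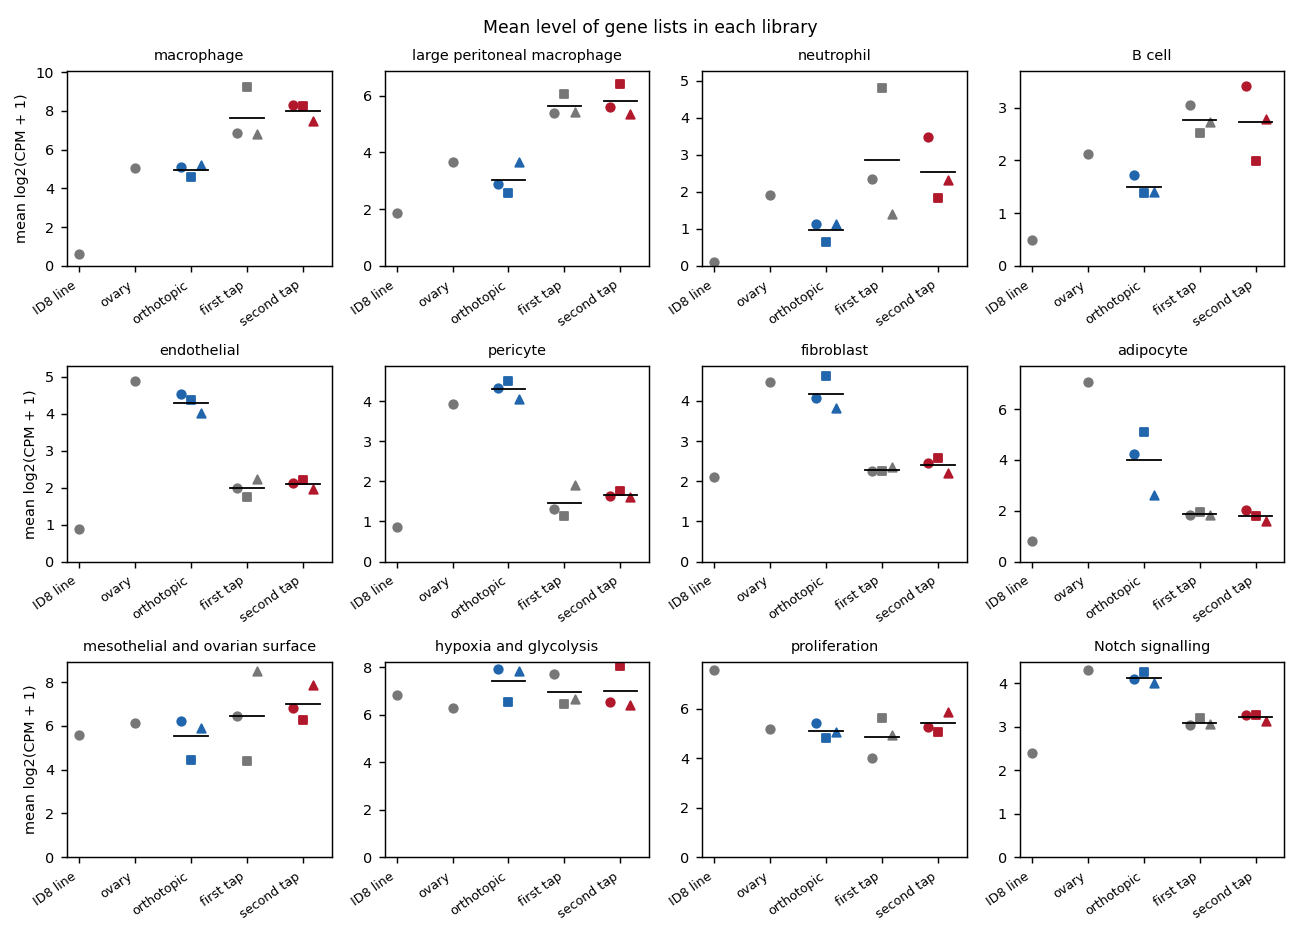
Mean log2(CPM + 1) of 12 gene lists (vertical axis) in the cultured ID8 line and healthy ovary (1 library each) and in the orthotopic tumours, first taps and second taps (3 each; circles, squares and triangles for replicates 1, 2 and 3, bars for means). Macrophage levels are 7.45 to 8.30 in second taps and 4.61 to 5.201 in tumours, and endothelial levels 1.96 to 2.203 against 4.02 to 4.53.

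Most called genes were scarcely expressed by the cultured line, which is 1 library without a replicate. Of the 117 higher genes 83 (70.9%) were under 1 CPM in it, and of the 131 lower genes 74 (56.5%), against 42.8% of all genes tested. At 10 CPM or more in the line were 15 of the higher genes (12.8%) and 16 of the lower genes (12.2%), against 39.6% of all. These split points were chosen after the data were seen.

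The 16 lower genes that the line expresses included Lama1, a laminin chain of basement membranes, at 4.80, 1.03 and 1.76 CPM in the taps, 94.0, 308 and 65.0 CPM in the tumours and 79.3 CPM in the line (-5.94 ± 1.23, adjusted p = 0.0466). Pdzrn3, a ubiquitin ligase, was at 1.89, 1.97 and 1.102 CPM, 52.2, 41.0 and 30.3 CPM and 151 CPM in the same order (-4.63 ± 0.58, adjusted p = 0.0127). Bcat1, which starts the breakdown of branched-chain amino acids, was at 1.48, 2.89 and 0.331 CPM, 44.8, 86.5 and 41.3 CPM and 59.5 CPM (-5.19 ± 1.02, adjusted p = 0.0436), and the membrane protease Mmp16 at 0.711, 0.572 and 0.514 CPM, 12.6, 57.5 and 11.5 CPM and 20.8 CPM (-5.49 ± 1.004). In these 4 the line was above every tap and above the lowest tumour. Gpt2, a mitochondrial transaminase, was at 25.1, 31.1 and 29.6 CPM, 107, 85.1 and 56.3 CPM and 107 CPM (-1.54 ± 0.29, adjusted p = 0.0412). In others of the 16 the line was below every tumour. Col12a1 was at 17.5 CPM in the line against a tumour mean of 437 CPM. Zfhx4 was at 13.3 against 174 CPM and Fbxo21 at 60.8 against 387 CPM.

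Among the 15 higher genes that the line expresses were Rnf150 at 98.6, 104 and 98.2 CPM in the taps, 29.1, 17.2 and 21.1 CPM in the tumours and 101 CPM in the line (2.16 ± 0.40, adjusted p = 0.0405), and Tmem63a, a mechanically gated channel, at 82.1, 139 and 107 CPM, 48.5, 31.5 and 48.6 CPM and 177 CPM (1.35 ± 0.28, adjusted p = 0.0471). Fancc, of the Fanconi anaemia pathway of DNA repair, was at 33.4, 36.4 and 40.2 CPM, 11.4, 14.6 and 19.1 CPM and 32.4 CPM (1.28 ± 0.27, adjusted p = 0.0487). In these 3 the taps were closer to the line than the tumours were. Hmox1, the enzyme that breaks down haem, was at 1621, 1042 and 629 CPM, 112, 70.5 and 137 CPM and 129.9 CPM (3.36 ± 0.55, adjusted p = 0.0275), so there the line stood with the tumours.

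**Figure D5:**
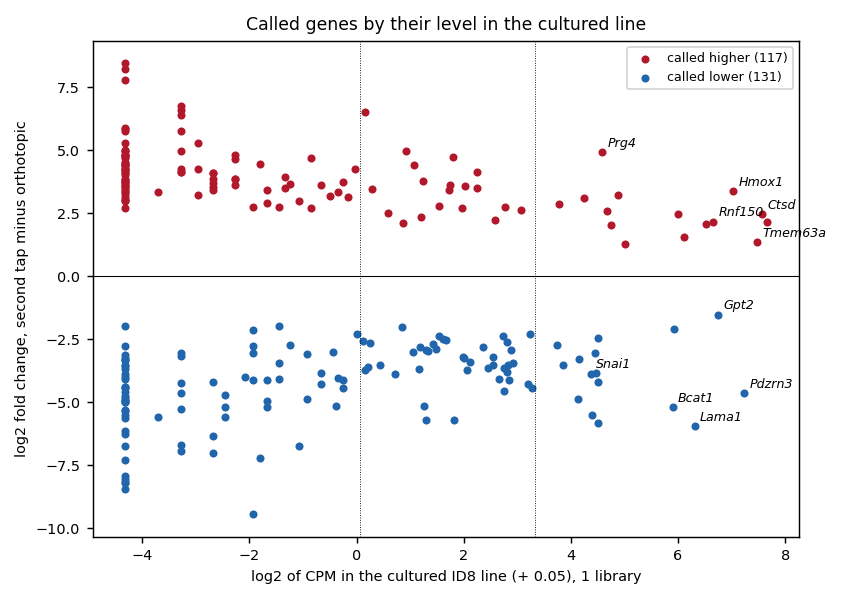
Log2 fold change of the second tap over orthotopic tumours (vertical axis) against log2 CPM in the cultured ID8 line (horizontal axis) for the 248 called genes. Dotted lines stand at 1 and 10 CPM, and 83 of the 117 higher and 74 of the 131 lower genes lie left of the first.

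Whether the difference from the tumours was itself different at the second tap was tested by setting the second against the first tap, since both are compared with the same tumours. In edgeR's quasi-likelihood test 0 of 22671 genes differed between the taps (0% called), 145 had an unadjusted p under 0.05, and DESeq2 called 1, an immunoglobulin segment, Igkv8-19. Of the genes called against the tumours, 115 of the 117 higher and 108 of the 131 lower were within 1 log2 unit of the first tap. The 8 of them with the smallest p between the taps were Trpc6, Adgrl4, Rn7sk, Sox18, Thy1, Nrn1, Cspg4 and Mamdc2. Trpc6, a calcium channel, had 0 counts in the second taps, 0, 0.378 and 0.421 CPM in first taps 1, 2 and 3 and 1.01, 1.13 and 1.66 CPM in the tumours, which makes it at least 40.5-fold lower in the second taps than in the tumours with 3 counts allowed over the group. Adgrl4, a receptor of endothelial cells, was at 0.799, 0.0572 and 0.441 CPM in the second taps, 0, 0 and 0.0765 CPM in the first and 18.7, 22.3 and 12.3 CPM in the tumours, and its unadjusted p between the taps was 0.00570. For the other 6, from Rn7sk to Mamdc2, that p ran from 0.0123 to 0.0287, and the adjusted p was 1 for all 8. In first tap 2 the macrophage gene Adgre1 was at 556 CPM against 87.0 and 73.1 in the other first taps, a wider range than within the second.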

How the data were processed

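The authors deposited 1 table of raw counts (whole reads assigned to each Ensembl gene). The submitters' processing notes name HISAT, HISAT2, featureCounts and DESeq2, without versions, and both hg19 and mm39, so the build is unclear and no gene coordinates from the files were printed. Promoter coordinates and letters came from RefSeq on GRCm38.p6. Per the labels' protocols, libraries were directional total RNA. Symbols were matched by identifier (42462 of 43629), and 1 column that matched no label was not used.

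Genes above 0.5 CPM (per library total) in at least 2 of 17 libraries were tested in edgeR 4.0.16 (R 4.3.3) with TMM scaling and 1 robust quasi-likelihood fit of 8 groups (9 residual degrees of freedom). Genes passed at a Benjamini-Hochberg adjusted p under 0.05 over all genes tested. The procedure was checked on simulated counts drawn with the spread of the same fit. That check cannot tell how far calls depend on single libraries. Reported CPM were scaled to the total over tested genes times the TMM factor. The ± values, named SE, were derived from the test: the absolute log2 fold change divided by the square root of its F statistic. Of 666 list genes, 660 were tested. The comparison and the lists were chosen with earlier results of these data known. Named genes were the 15 largest changes in each direction that passed, with no overlap between groups, a log2 change of 1 or more and 10 CPM or more on average in the higher group, list members by smallest p or described per library, and up to 8 with the smallest p between taps. Some list members and called genes are not reported here by name. Numbered models, clone names and receptor segments were left out. Alternatives changed scaling, test (DESeq2 1.42.0), filter, libraries and block.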

Additional observations from a re-analysis of the deposited data

How the results depend on the processing

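All 248 calls kept their direction under every alternative that tested them. Counts moved: against 117 higher and 131 lower, DESeq2 size factors gave 56 and 104, library size alone 2 and 15, DESeq2's Wald test 1088 and 933 (2307 adjusted p not given), the 6 libraries alone 1024 and 763, and those 6 with the replicate block 707 and 437. Leaving out 1 of the 6 libraries gave 0 to 1 higher and 1 to 29 lower. Alternatives added after seeing the data gave 0 and 0 without the S-prefixed library of each group, and 922 and 661 in the 6 libraries with the prefix as a term. Dropping the filter gave 112 and 138. Between the taps, 0 genes passed in every edgeR alternative, leave-one-out (0 to 0) and replicate block (0) included, and DESeq2 called 1. The median over all genes moved from 0.13 to 0.01 in the 6 libraries alone. The cause of these shifts was not tested.

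The labels do not tie the replicate numbers to animals. Deviations of same-numbered taps and tumours correlated at -0.002, -0.033 and 0.021. Between the taps, second tap 2 correlated best with first tap 1 (0.61), which shares its prefix S, and same-numbered libraries at -0.55, -0.09 and 0.05. No second tap correlated best with the tumour of its own number, and whether samples share animals was not tested.

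Reversals touched uncalled genes. Over the omissions of 1 library the log2 fold change ran from -0.39 to 0.17 for Wt1, -1.11 to 0.96 for Epcam, -0.40 to 0.88 for Cdh1, -1.05 to 0.25 for Cd3e, -3.22 to 5.67 for Zp3 and -0.075 to 0.51 for Mki67. Without the S-prefixed libraries it was 0.15 for Wt1, -0.44 for Cdh1 and 0.071 for Alas2, and with the replicate block 0.0033 for Epcam. A gene at 0 counts in the second taps was limited to 0.0313 CPM, or 3 counts over the group.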

Other observations

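Developmental regulators and guidance cues were among the lower genes outside the lists and were picked after their values were seen. The transcription factors Tbx2, Dlx5, Hic1 and Zfp521 had log2 fold changes, second tap over orthotopic tumours, of -2.57 ± 0.52, -5.15 ± 0.9996, -2.01 ± 0.39 and -3.44 ± 0.64 (SE). Slit2, a secreted guidance cue, was at 3.17, 4.98 and 1.32 CPM in the taps against 90.2, 48.8 and 43.5 CPM in the tumours (-4.26 ± 0.76, edgeR adjusted p = 0.0381), Sema7a, a membrane semaphorin, at 15.5, 20.9 and 10.0 CPM against 125, 165 and 95.9 CPM (-3.05 ± 0.44, adjusted p = 0.0202), and Rgma had a log2 fold change of -3.73 ± 0.63. In each of these every tap lay below every tumour.

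The endothelin receptors stood on opposite sides. Ednra, the receptor of smooth muscle and pericytes, was at 0.681, 1.66 and 0.0735 CPM in the taps against 8.64, 27.7 and 8.89 CPM (-4.21 ± 0.85, adjusted p = 0.0448). Ednrb was at 532, 302 and 289 CPM against 15.4, 12.9 and 23.6 CPM (4.44 ± 0.83, adjusted p = 0.0405). Alox15, a lipoxygenase of resident peritoneal macrophages, was at 153, 547 and 96.5 CPM against 0.623, 0.465 and 26.4 CPM and did not pass (adjusted p = 0.188), with orthotopic tumour 3 far above tumours 1 and 2. Bmp7, a bone morphogenetic protein at 0 CPM in the line, was at 5.33, 10.4 and 2.46 CPM in the taps against 169, 89.1 and 46.3 CPM (-4.07 ± 0.86, adjusted p = 0.0487). Lrrc32, which anchors latent TGF-beta on the cell surface, was at 1.48, 2.00 and 0.661 CPM against 21.7, 38.5 and 20.1 CPM (-4.27 ± 0.49, adjusted p = 0.00969) and passed in 5 of the 6 omissions of a single library.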
